A study of Caenorhabditis elegans with 2 samples.

Results

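Binding of the Mediator subunit MDT-29 was described at 9 chaperonin genes, the 8 genes of the cytosolic chaperonin CCT and the mitochondrial hsp-60, out of 19973 protein-coding genes on the nuclear chromosomes. The genes were taken from a list of names, and every peak was used whose summit, the highest point of a peak, was at most 1000 bp from one of their transcripts' 5' ends. MDT-29 belongs to Mediator, the large complex through which transcription factors act on RNA polymerase II. It was mapped by chromatin immunoprecipitation and sequencing (ChIP-seq) with an antibody against GFP in whole Caenorhabditis elegans of strain RJP4521. In this strain a tag was inserted by CRISPR at mdt-29 on chromosome III. The labels write it as rp133 (Degron::GFP::mt-29) and elsewhere as mdt-29-eGFP.

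Chaperonins are barrel-shaped machines that enclose an unfolded protein and release it folded. The cytosolic chaperonin CCT, also called TRiC, is built from 8 different subunits that sit side by side in each of its stacked rings, and actin and tubulin are its best known clients. Each subunit is encoded by its own gene, cct-1 to cct-8, and all are needed to build a ring. The mitochondrial chaperonin is built from a single kind of subunit, encoded in worms by hsp-60, and works with a lid built from a far smaller protein. In worms hsp-60 is a widely used reporter of the mitochondrial unfolded protein response.

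There was a single group of 2 biological replicates, both L4 larvae of 48 hours grown from larvae starved at the L1 stage after bleaching. No treatment is named in the labels, and no condition was compared. Whole animals were used, so a peak cannot be assigned to a tissue. The main list (1705 peaks) was derived by the authors from both samples together. Their conservative list, also from both samples, held 1690, and the lists of the single samples held 777 peaks (replicate 1) and 1050 (replicate 2). Longer ranked lists, with 68737 to 98568 peaks, also hold the weak peaks that missed the authors' threshold. Sequencing depth per sample is unknown, since no read totals were used. Each peak carries a signal, a strength given by the authors' processing, and a score of up to 1000 that rises as the peak's rank repeats better between paired peak lists. Peaks of the thresholded lists score 830 or more.

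MDT-29 peaks marked 3 of the 8 CCT genes, namely cct-8, cct-1 and cct-7, and also hsp-60. The other 5 subunit genes, cct-2, cct-3, cct-4, cct-5 and cct-6, had no peak in the main list. In the main list, genes of the same ring were thus not marked alike. Over all 19973 protein-coding genes, 1020 (5.11%) had a main peak within 1000 bp. Each of the 4 bound genes had exactly 1 such peak, and the same 4 genes had 1 peak each in the conservative list (background 5.11%), in replicate 1 alone (2.51%) and in replicate 2 alone (3.40%). The members were chosen with results of these data known, so their counts are set beside the background as a description and were not tested.

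How a peak is assigned to a gene changed this count more than the choice of list did. Counting only 5' ends of protein-coding transcripts left 4 bound members (background 5.09%), and so did using the 853 main peaks of higher signal (2.96%). The ranked list behind the main list also gave 4 at a global irreproducible discovery rate (IDR) of 0.05 (8.74%). A window of 500 bp left the 3 CCT genes without hsp-60 (3.57%), and one of 250 bp left cct-1 alone (2.12%). When a peak counted only for the protein-coding gene whose 5' end was nearest, 0 of the 9 members was bound (4.03%), since all 4 peaks were nearer to a neighbouring gene.

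The sequence around each of the 4 summits is shown first, because it was searched for the heat shock elements described further on. Each stretch runs 100 bases to either side of the main summit, which is its middle base, reaches the 5' end of neither flanking protein-coding gene, is written 5' to 3' on the forward strand of ce11 (WBcel235, RefSeq genome sequence), and contains no annotated UTR. Capitals mark the fixed letters of matches to patterns of heat shock elements, the sites of the heat shock transcription factor. The patterns were GAANNTTC and TTCNNGAA, each only a pair of units, and a 3-unit element. The 3-unit element is GAANNTTC directly followed by NNGAA. The cct-1 stretch lies at chrII:8185115-8185315, cct-7 at chrV:1871819-1872019, cct-8 at chrIV:1094256-1094456 and hsp-60 at chrIII:1619038-1619238. The cct-8 gene lies on the reverse strand and the other 3 on the forward strand.
cct-1: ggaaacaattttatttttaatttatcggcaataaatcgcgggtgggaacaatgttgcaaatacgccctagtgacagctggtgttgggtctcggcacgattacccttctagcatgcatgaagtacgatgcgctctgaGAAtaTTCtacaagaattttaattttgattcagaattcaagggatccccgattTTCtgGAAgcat
cct-7: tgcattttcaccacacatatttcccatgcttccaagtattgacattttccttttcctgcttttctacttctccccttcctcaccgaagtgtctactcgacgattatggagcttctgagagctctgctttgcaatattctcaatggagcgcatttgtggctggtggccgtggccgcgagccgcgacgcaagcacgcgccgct
cct-8: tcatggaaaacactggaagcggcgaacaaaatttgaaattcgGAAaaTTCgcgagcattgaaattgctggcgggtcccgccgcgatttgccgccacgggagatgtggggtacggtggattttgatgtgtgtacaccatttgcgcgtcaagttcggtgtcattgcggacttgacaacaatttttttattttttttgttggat
hsp-60: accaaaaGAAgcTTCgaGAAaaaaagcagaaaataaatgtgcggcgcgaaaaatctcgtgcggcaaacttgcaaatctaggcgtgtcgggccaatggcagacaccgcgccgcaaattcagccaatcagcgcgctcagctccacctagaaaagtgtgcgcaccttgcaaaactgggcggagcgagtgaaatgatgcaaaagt
The last 40 bases of the cct-7 stretch fall in the noncoding RNA gene T10B5.13, and the other stretches overlap no annotated exon.

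The gene cct-8 (WBGene00021934, chromosome IV, 1087108 to 1093920), which encodes the theta subunit, had the strongest peak of the 9 genes. Its main peak at 1094270 to 1094467 had a signal of 400.1 and was the 40th strongest of 1705, against a median signal of 99.5 in that list. In the samples the signal was 167 in replicate 1 and 229 in replicate 2, with a mean of 198 ± 44.0 (SD, n = 2). The summit lay 436 bp upstream of the longer transcript's 5' end in the main list, 431 bp upstream in replicate 1 and 438 bp upstream in replicate 2, so it moved by 7 bp between the samples. A shorter cct-8 transcript starts at 1092171, and no peak of the main list lay within 1000 bp of that start.

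The hsp-60 gene (WBGene00002025, chromosome III, 1619742 to 1625803) had the next strongest peak. Its main peak at 1619046 to 1619220 had a signal of 329 and was 60th in the list. The signal was 141 in replicate 1 and 175 in replicate 2, with a mean of 158 ± 23.7 (SD, n = 2). The summit lay 604 bp upstream in the main list, 632 bp in replicate 1 and 627 bp in replicate 2. This peak is therefore found with a window of 1000 bp and missed with one of 500 bp. Of the 4 annotated hsp-60 transcripts, 3 start within 17 bp of each other. The fourth starts inside the gene and had no main peak within 1000 bp.

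The alpha subunit gene cct-1 (WBGene00000377, chromosome II, 8185443 to 8187601) had a main peak at 8185055 to 8185374 with a signal of 140.5, the 401st of the list. The signal was 52.4 in replicate 1 and 90.6 in replicate 2, a mean of 71.5 ± 27.0 (SD, n = 2), the widest relative spread of the 4. Its score was 892 in replicate 1, nearer to the minimum of 830 than at any other bound member, and 1000 in replicate 2. The summit was also the most closely repeated of the 4, at 228 bp upstream in the main list, 229 bp in replicate 1 and 228 bp in replicate 2.

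At cct-7 (WBGene00020391, chromosome V, 1872246 to 1875505), for the eta subunit, the main peak, at 1871759 to 1872078, had a signal of 119 and was 573rd in the list. The signal was 49.95 in replicate 1 and 70.04 in replicate 2, a mean of 59.99 ± 14.2 (SD, n = 2). The summit lay 327 bp upstream in the main list, 263 bp in replicate 1 and 341 bp in replicate 2, a shift of 78 bp between the samples. In replicate 1 it fell inside the short noncoding RNA gene T10B5.13, and in replicate 2 in the space beside it.

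Both samples placed the bound genes in the same order, cct-8, hsp-60, cct-1 and cct-7, and replicate 2 gave the higher signal at all 4. Whether signal is scaled between the samples is not known, so these SDs include any difference in scale. The peaks of cct-8 (198 bp) and hsp-60 (175 bp) were among the 180 main peaks narrower than 320 bp, the width of 1502 of the 1705 peaks. The narrower peaks had a median signal of 255. The peaks of cct-1 and cct-7 were of the common width.

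**Figure D1:**
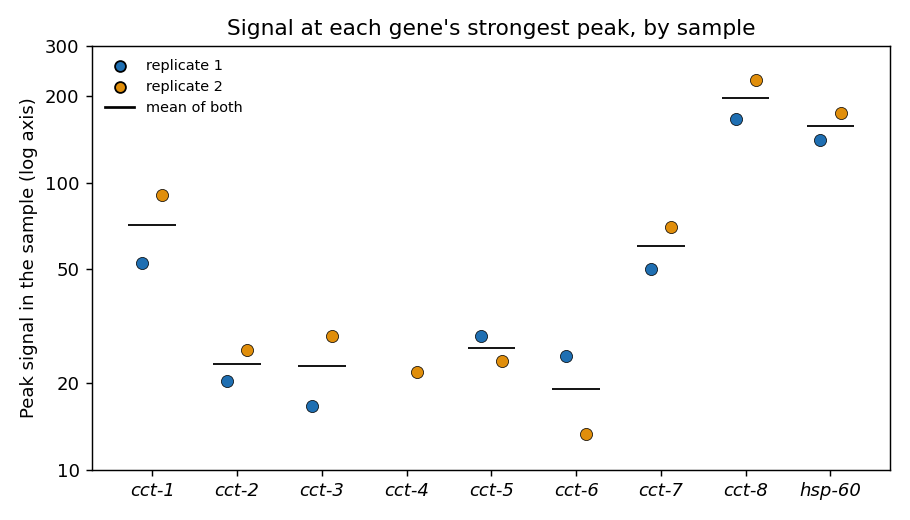
Peak signal (log axis) in replicate 1 and replicate 2 at the strongest peak of each chaperonin gene, taken from the main list where it had a peak and otherwise from the longer ranked list; points are samples and bars the mean of both. The 4 bound genes lie at 49.95 or more in both samples and the other 5 at 29.2 or less, and cct-4 has a value in replicate 2 only. Each sample is shown at the peak that overlaps the one chosen, so the upstream peak of cct-5 in replicate 2, with a signal of 45.9, is not drawn. The overlapping peak can have its summit elsewhere, as in replicate 2 at cct-4 (524 bp inside the gene, against 298 bp) and cct-6 (953 bp, against 773 bp).

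The 5 other subunit genes were followed in the ranked list behind the main list, which holds 98568 peaks. All 9 genes had peaks there within 1000 bp, from 3 to 7 each and 38 in all, as had 76.4% of the 19973 protein-coding genes. In this list the strongest of these peaks lay upstream of the gene at the 4 bound members and downstream of the 5' end, inside the gene, at the 5 others. In single samples this division had 2 exceptions, cct-4 in replicate 1 and cct-5 in replicate 2, whose strongest peaks lay upstream. Over all genes without a main peak but with a peak in this ranked list, the strongest ranked peak was upstream for 47% (of 14237). Over genes with a main peak, the strongest main peak was upstream for 73.8% (of 1020).

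Among the unbound genes cct-5 (WBGene00000380, chromosome III, 4499188 to 4508114), for the epsilon subunit, came closest to the threshold. Its strongest ranked peak had a signal of 52.9 and a score of 440 and lay 309 bp inside the gene, in a coding exon. A further peak 476 bp upstream had a signal of 45.5 and a score of 303. In replicate 2 the upstream peak, at 448 bp, had a signal of 45.9 and a score of 716, against the minimum of 830. Replicate 1 had no ranked peak at that upstream position, and its only peak near cct-5 had a signal of 29.2 and a score of 149, 361 bp inside the gene. The bound member nearest to the threshold from above was cct-1 in replicate 1, with its score of 892.

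At cct-3 (WBGene00018782, chromosome II, 2233540 to 2243539), for the gamma subunit, the strongest ranked peak had a signal of 45.5 and lay 375 bp inside the gene, in an intron. The samples gave 16.7 and 29.2, a mean of 22.97 ± 8.87 (SD, n = 2), with summits 465 and 508 bp inside the gene. At cct-2 (WBGene00000378, chromosome II, 8927741 to 8929815), for the beta subunit, the signal was 41.2 at 130 bp inside the gene. The samples gave 20.4 and 26.2 there, a mean of 23.3 ± 4.10 (SD, n = 2), with summits 128 bp apart.

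The lowest ranked signals were at cct-6 and cct-4. At cct-6 (WBGene00000381, chromosome III, 5853530 to 5855687), for the zeta subunit, the signal was 37.8 at 773 bp inside the gene. The strongest overlapping peaks gave 24.9 at 773 bp in replicate 1 and 13.4 at 953 bp in replicate 2. A weaker replicate 2 peak, at 752 bp, had a signal of 3.97. At cct-4 (WBGene00000379, chromosome II, 8283667 to 8285711), for the delta subunit, the strongest ranked signal was 31.5 at 298 bp inside the gene. Only replicate 2 had a ranked peak overlapping that of cct-4, with a signal of 21.97. Its summit lay 524 bp inside the gene, nearer to another peak of the ranked main list at 515 bp (signal 17.6). In replicate 1 the strongest peak near cct-4 had a signal of 9.22 and lay 526 bp upstream, inside the neighbouring gene nst-1. These weak peaks are listed by the authors before thresholding, and their scores of 31 to 178 at cct-2, cct-3, cct-4 and cct-6 mark ranks that repeat poorly.

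**Figure D2:**
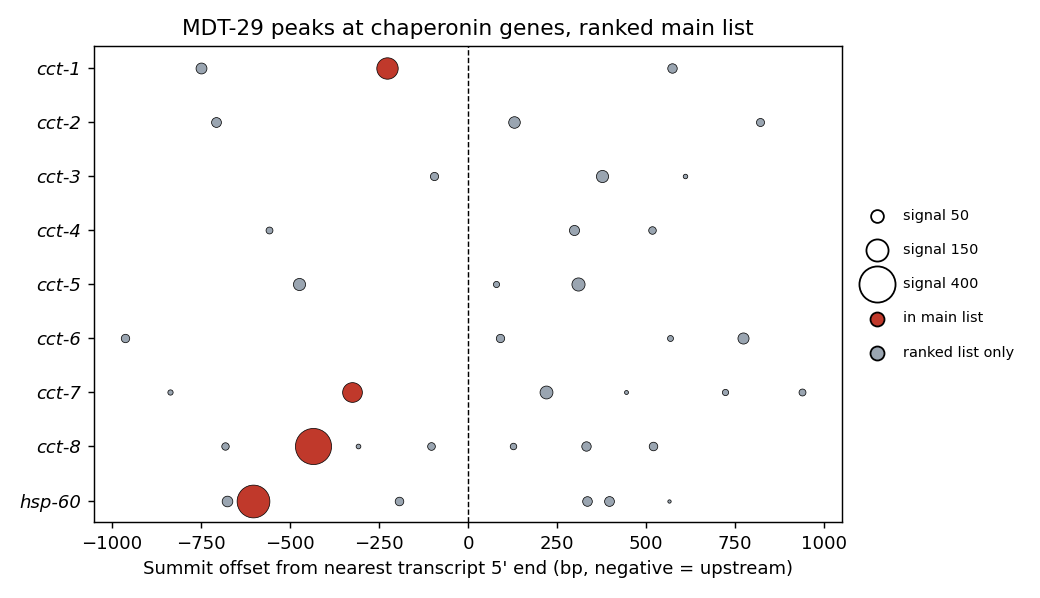
Peaks of the ranked main list within 1000 bp of the 5' ends of the 9 genes, by summit offset (bp, negative upstream), with the area of each circle in proportion to signal. The main-list peaks (red) lie 228 to 604 bp upstream, and at cct-2 to cct-6 the largest circle lies downstream of 0.

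The strongest signal of each member was set among those of all 15257 protein-coding genes with a ranked peak within 1000 bp. Peaks enter the main list by their ranks, so higher values at the bound genes follow from the split and are given as a description. The strongest signal of cct-8 exceeded that of 99.79% of these genes, hsp-60 that of 99.66%, cct-1 that of 98% and cct-7 that of 97.3%. The median over all these genes was a signal of 36.3. For the unbound subunits the shares of genes below were 81.22% for cct-5, 70.69% for cct-3, 62.14% for cct-2, 53.77% for cct-6 and 36.7% for cct-4. In replicate 2 the share for cct-5 was 93.1%, with the upstream peak as its strongest, while in replicate 1 it was 83.6%.

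**Figure D3:**
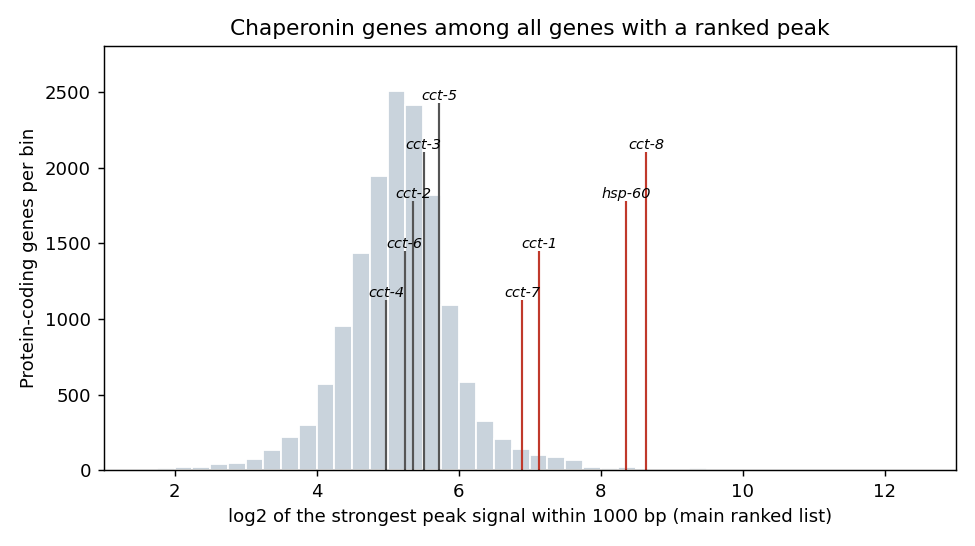
Histogram of the log2 of the strongest ranked peak signal within 1000 bp over 15257 protein-coding genes, with the 9 chaperonin genes marked (red, gene with a main-list peak; dark grey, without). Bound members run from cct-7 at a signal of 119 to cct-8 at 400.1, and the other 5 lie between 31.5 and 52.9.

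Every chaperonin gene here has a protein-coding neighbour upstream that is transcribed away from it, so that their 5' ends face each other. Such a divergent neighbour is found at 45.4% of the 19973 protein-coding genes and at 55.5% of the 1020 genes with a main peak. At all 4 bound members the main peak lay in the space between the 2 divergent 5' ends, and in each case its summit was nearer to the neighbour. Of the 1020 genes with a main peak within 1000 bp, 216 (21.2%) were like this, with another protein-coding gene nearer to every such peak. A peak between divergent genes cannot be assigned to either by position alone, and whether MDT-29 acts on either gene was not measured.

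The closest neighbour in function was that of hsp-60. Across a space of 812 bp it faces Y22D7AL.10 (WBGene00021248), annotated in RefSeq as the 10 kDa heat shock protein of mitochondria, which in other organisms forms the lid of the Hsp60 barrel. The summit lay 209 bp from the 5' end of Y22D7AL.10 and 604 bp from that of hsp-60. Both genes thus shared 1 MDT-29 peak.

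At cct-8 the space was 620 bp, and the summit lay 185 bp from Y55F3AR.2, which encodes a protein with a thioredoxin domain, and 436 bp from cct-8. At cct-7 the space was 438 bp, with the summit 112 bp from T10B5.4, annotated as an aralkylamine N-acetyltransferase, and 61 bp from the noncoding T10B5.13. At cct-1 the space was 419 bp and the summit lay near its middle, 192 bp from mig-5, a homolog of the Wnt signalling protein dishevelled, and 228 bp from cct-1. The difference of 36 bp there is small against a peak width of 320 bp.

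The unbound subunits faced divergent neighbours too, so the arrangement did not separate them from the bound ones. The spaces were 330 bp at cct-6 (facing alh-9), 458 bp at cct-4 (nst-1), 740 bp at cct-5 (F25F2.1), 1069 bp at cct-3 (F54A3.6) and 1189 bp at cct-2 (B0457.2), a range that encloses the 419 to 812 bp of the bound genes. In the ranked list the spaces at cct-4 and cct-6 held no summit. Those at cct-5, cct-2 and cct-3 held 1 each, with signals of 45.5, 29.6 and 20.8. Of 1957 divergent pairs of protein-coding genes at most 1189 bp apart, 108 (5.52%) held a main summit between their 5' ends.

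**Figure D4:**
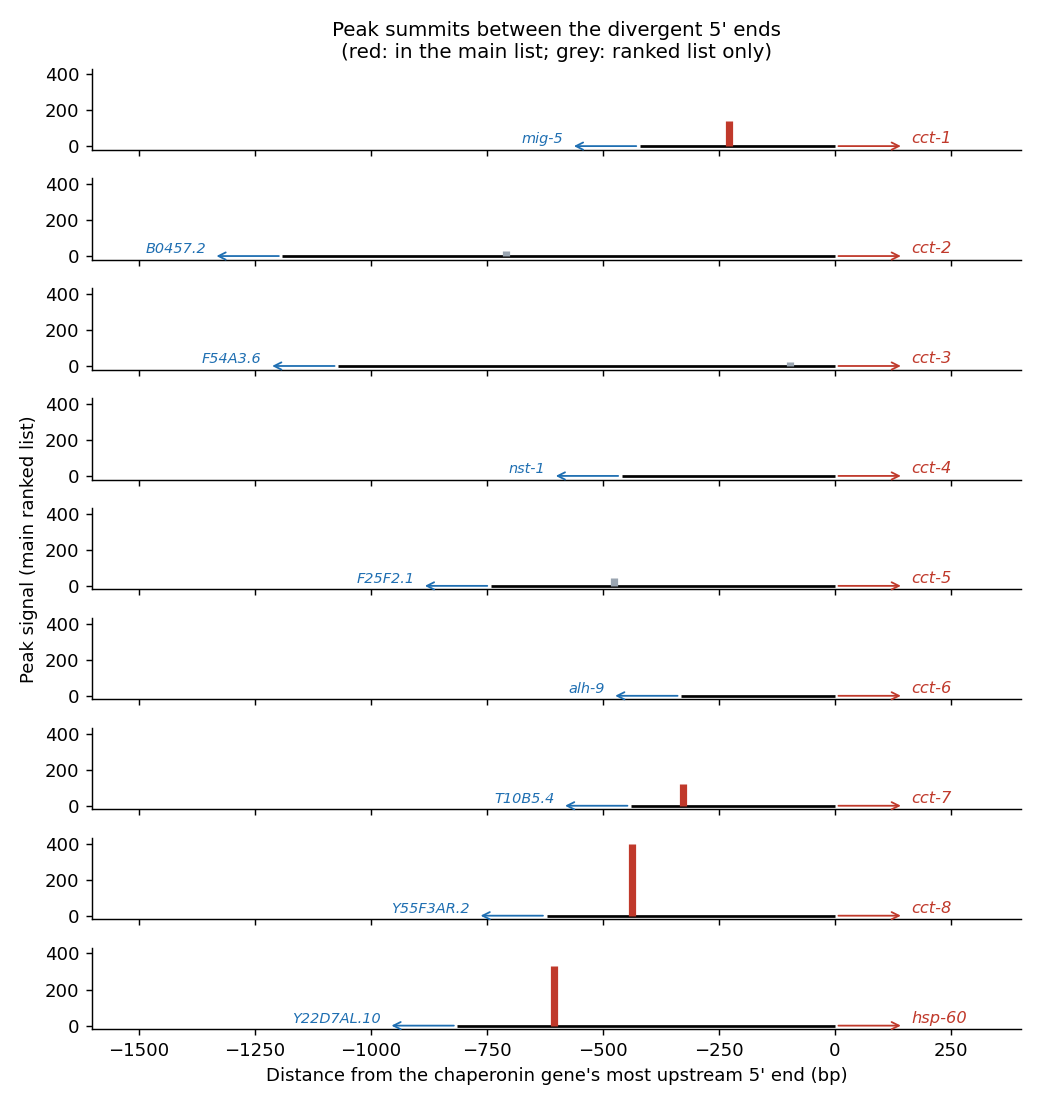
Space between each chaperonin gene (red arrow, at 0 bp) and its divergent upstream neighbour (blue arrow), to scale, with each summit of the ranked main list between them drawn as a bar of the height of its signal. Red bars at cct-1, cct-7, cct-8 and hsp-60 are main-list peaks and lie on the neighbour's side of the middle, and grey bars at cct-2, cct-3 and cct-5 are ranked peaks only.

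Heat shock elements were looked for because CCT and hsp-60 belong to the chaperone genes, many of which respond to heat shock factor. Each pattern was searched on both strands, and the 3-unit element contains both of the shorter patterns. Within 100 bp of the hsp-60 summit lay the 3-unit element, with its centre 87 bp from the summit, on the side of Y22D7AL.10. It runs from 1619045 to 1619057, at the very edge of the main peak, which starts at 1619046. The element lies outside the narrower peaks of replicate 1 (from 1619072) and replicate 2 (from 1619066). The 3-unit element was found in 5.69% of the 1705 main peaks within the same 201 bp. The cct-1 peak held GAANNTTC and TTCNNGAA, both on the cct-1 side of the summit, and the cct-8 peak held GAANNTTC, on the cct-8 side. Of all main peaks, 15.3% held GAANNTTC and 13.4% held TTCNNGAA.

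Within 100 bp, 3 of the 4 bound members thus held at least 1 of the patterns, against 22.3% of all main peaks. Within 50 bp, 1 of the 4 did, against 14.1% of all main peaks. At cct-7 the first match, TTCNNGAA, lay 116.5 bp from the summit. Among the strongest ranked peaks of the 5 unbound subunits, GAANNTTC matched at cct-3 and cct-4 and neither of the other patterns matched. Both genes also had this match within 50 bp of the summit, where cct-1 was the only bound member with one. The pattern GCGGGAA, the core of E2F-like sites, matched at none of the 9 genes' peaks and in 3.23% of main peaks. A match describes letters only, and binding of heat shock factor was not measured.

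In the window from 250 bp before to 50 bp after the most upstream 5' end, matches were spread over bound and unbound members. GAANNTTC was found at cct-1, cct-3, cct-5, cct-7 and cct-8 (5 of 9, against 18.5% of 19973 promoters). TTCNNGAA was found at cct-1, cct-4, cct-5, cct-6 and cct-7 (5 of 9, against 18.9%). The 3-unit element, found at the edge of the hsp-60 peak, lies outside this window and matched in none of the 9 promoters, against 1.97% of all.

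Proteins that work with CCT were looked up next. Prefoldin, which hands unfolded actin and tubulin to CCT, has 6 subunit genes, and 1 of them, pfd-1, had a main peak (background 5.11%). The peak of pfd-1 had a signal of 98.7, and 47.7 and 56.4 in replicates 1 and 2, with its summit 340 bp upstream. It was in the thresholded list of replicate 2 and not in that of replicate 1, and the neighbouring F01G4.6 was nearer, at 269 bp. The median strongest ranked signal of the 6 genes was 36.9, against 36.3 over all genes and 49.2 over the 8 CCT genes.

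Of 21 genes for the clients actin and tubulin, 5 had a main peak and 6 had a peak in the conservative list (background 5.11% in each). The median strongest ranked signal was 58.2 over the 17 of them with a ranked peak, above the value for the CCT genes. The strongest was at the alpha tubulin gene tba-2, with a signal of 210, and 87.9 and 119 in the samples, 151 bp upstream and in the lists of both samples. The gamma tubulin gene tbg-1 had a signal of 129, with 67.6 in replicate 1 and 48.0 in replicate 2, and was in the list of replicate 1 only. Its summit lay 847 bp upstream, and 116 bp from rpac-19. The beta tubulin gene tbb-1 (signal 89.6) and the actin genes act-2 (85.6) and act-5 (84.3) were in neither sample's list. The summit at tbb-1 lay 266 bp from its 5' end and 112 bp from that of rib-2. With replicate 1 alone 2 of the 21 genes were bound and with replicate 2 alone 1 was, against backgrounds of 2.51% and 3.40%.

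Among 15 genes of mitochondrial folding, import and quality control, 3 had a peak in the conservative list and 4 had a main peak (background 5.11% in each). Of these 4, 1 was Y22D7AL.10, through the peak shared with hsp-60. The median strongest ranked signal was 42.8 over the 13 listed genes with a ranked peak. The mitochondrial Hsp70 gene hsp-6 had a signal of 210, with 105 and 126 in the samples, 328 bp upstream, and was in both samples' lists. As at the chaperonin genes, another gene, C37H5.5, was nearer, at 272 bp. The genes atfs-1, for the transcription factor that drives the mitochondrial unfolded protein response, and tomm-20, for an import receptor, had weak peaks (signals 66.4 and 74.0) that were in neither sample's list.

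Genes with signals most like those of the 2 strongest members were named by the sum, over the 2 samples, of the absolute log2 difference in strongest ranked signal, among 12412 genes with a value in both. For cct-8 the first was Y55F3AR.2, which shares the peak (sum 0), followed by K11H12.8 and the ribosomal protein gene rpl-15 (0.0658 each). These genes had the same values as each other, 165 in replicate 1 and 221 in replicate 2, so they do not count as separate matches. For hsp-60 the first was Y22D7AL.10, which shares the peak (0), followed by eelo-2 (0.0630) and the cytochrome c oxidase gene cox-5A (0.0742).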

How the data were processed

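Peak lists of ChIP-seq against GFP-tagged MDT-29 in 2 samples of L4 larvae were used as deposited. The assembly is ce11 per the notes deposited with the files, and the aligner and peak caller are not given in the sources used here. The authors gave each peak a signal and a score. The score of a peak, also deposited, restates on another scale its IDR, the irreproducible discovery rate. The ranked lists also hold the −log10 of the global IDR, as deposited by the authors. Per those notes, the main and conservative lists were made from both samples and 1 list of each kind from each sample alone.

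From these, summits were placed by start plus summit distance and printed counting from 1. Offsets were taken from the nearest transcript 5' end in Ensembl release 115 (WBcel235, the same build). Many worm transcripts are trans-spliced, so an annotated 5' end can lie inside the primary transcript. For the signal of a sample, the strongest overlapping peak (at least 1 bp) of its ranked list was taken. The start codons of all 9 members read ATG in the RefSeq genome. No test was run: with 1 group of 2 samples, counts are given beside those of all 19973 protein-coding genes. Nothing in the labels says how far the 2 biological replicates were grown apart, and an SD over n = 2 measures only their spread.

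The members, gene lists, motifs and naming rule (all members, their nearest genes, every listed gene with a main peak, and the genes most like cct-8 and hsp-60 in signal) were chosen with earlier results of these data known. One gene, pdl-1, was dropped from the prefoldin list because its annotation names another kind of protein. Peak assignment was tested on simulated data. Python 3.11.15 and matplotlib 3.10.9 were used. Alternatives were the conservative list, single samples, windows of 250 and 500 bp, coding transcripts only, the nearest gene only, a global IDR of 0.05, the 853 stronger main peaks, and motif windows of 50 and 150 bp.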

Additional observations from a re-analysis of the deposited data

How the results depend on the processing

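The same 4 genes were bound in the conservative list, in each sample alone, with coding transcripts only and in the 853 stronger main peaks. They were also the ones bound at a global IDR of 0.05 in the ranked list behind the main list. In the ranked list of replicate 2, the upstream peak of cct-5 passed that value too, with a global IDR of 0.0188. A window of 500 bp left 3, without hsp-60, and one of 250 bp left 1, cct-1 (background 2.12%). With each peak given only to its closest protein-coding gene, 0 of the 9 members was bound (background 4.03%), since all 4 peaks went to the divergent neighbours. Signal in single samples is below that of the main list, which was made from both: 52.4 to 90.6 at cct-1, 49.95 to 70.04 at cct-7, 167 to 229 at cct-8 and 141 to 175 at hsp-60. Summit offsets in single samples were -229 to -228 bp at cct-1, -341 to -263 bp at cct-7, -438 to -431 bp at cct-8 and -632 to -627 bp at hsp-60. Within 50 bp of the summit 1 of the 4 bound members held a heat shock pattern (14.1% of main peaks), and within 150 bp all 4 did (30.6%). No paired analysis was possible because there was a single group of 2 samples. Depth is unknown, so the lack of a main peak at 5 CCT genes leaves weaker binding there undetermined.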
